A study of Solanum lycopersicum var. cerasiforme with 6 samples.

Results

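The osmotin-like PR-5 cluster is a run of 6 neighbouring loci on tomato chromosome 8, Solyc08g080620, Solyc08g080630, Solyc08g080640, Solyc08g080650, Solyc08g080660 and Solyc08g080670, taken by locus number from 34081 rows of read counts. The run is described as osmotin-type genes with a neighbouring inhibitor-like gene, and its members were chosen by their CPM (counts scaled to the library total with TMM factors) in the genotypes compared here. Values of that contrast are therefore given as a description, with no test of the members. RNA came from young inflorescences of F3 progenies of cherry tomato (Solanum lycopersicum var. cerasiforme) that segregated for fw2.3, a fruit weight locus, and the largest floral buds were under 2 mm. Plants with the derived allele (fw2.3-D) made up 3 pools and plants with the allele of the wild type (fw2.3-WT) another 3, each pool of equal RNA from 2 plants. All plants grew unpruned in a greenhouse, in random positions. Levels in a bulk tissue cannot tell more cells of a type from more RNA per cell.

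Osmotins and other PR-5 proteins are pathogenesis-related proteins that resemble the sweet protein thaumatin. Many of them inhibit the growth of fungi in culture, and in tomato and tobacco their genes are known to respond to pathogens, salt, wounding and ethylene. Proteinase inhibitors, which block digestive enzymes of insects and microbes, form another class of inducible defence proteins in tomato. The gene table of the RefSeq assembly SLM_r2.1 lists PR-5, ER1, NP24-I and TPM-1 on chromosome 8. They fall in a stretch of 7 protein-coding genes from PR-5 to a gene with the synonym PR5, ends that were set here by those names. ER1 is an ethylene-responsive proteinase inhibitor, and NP24 is a salt-induced osmotin-type protein of tomato. That table pairs none of its symbols with the locus numbers of the count files, so the members are called by locus number and no symbol is given to any of them.

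The lengths implied by counts and RPKM (reads per length of gene and per library total) set one member apart from the rest. Solyc08g080630 had a length of 1418 bases. The other 5 members ran from 681 to 753 bases, each a whole multiple of 3. Solyc08g080660 and Solyc08g080670 had the same length, 753 bases. Whether neighbouring members share reads is not known, and strand was not kept in the libraries, so the division of reads among them is uncertain.

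Of the 6 members, 3 were expressed enough to pass the filter on low counts, and these held 96.4% to 99.6% of the reads of the run in each pool. Solyc08g080640 was the most abundant per length in all 6 pools, at a mean of 12.1 RPKM. Solyc08g080650 followed at 4.27 RPKM and Solyc08g080630 at 1.74 RPKM. Within each pool, the RPKM of Solyc08g080640 was 1.68 to 4.76 times that of Solyc08g080650. The RPKM of Solyc08g080630 was 0.231 to 0.779 times that of Solyc08g080650, so this order held in 6 of 6 pools. In CPM, which is not scaled by length, the members that passed lay under the median of tested genes. No such median was computed for RPKM, so their rank per length is not given. Their mean levels of 2.46, 3.16 and 8.98 CPM for Solyc08g080630, Solyc08g080650 and Solyc08g080640 compare with a median of 18.9 CPM over 20942 tested genes.

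Solyc08g080640, the member with most reads, stood at 5.61, 18.0 and 16.0 CPM in fw2.3-D pools 1, 2 and 3. In fw2.3-WT pools 1, 2 and 3 it stood at 3.89, 4.74 and 5.65 CPM. The fw2.3-D pools 2 and 3 were high, whereas the first lay just under the highest fw2.3-WT pool, so the genotypes overlapped. The fw2.3-D mean was 13.2 ± 6.65 CPM against 4.76 ± 0.883 CPM for fw2.3-WT (SD, n = 3), a ratio of 2.78, and the fitted log2 fold change was 1.47 (SE 0.376).

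Solyc08g080630, the long member, had 1.16, 5.61 and 5.28 CPM in the fw2.3-D pools. It had 0.786, 0.670 and 1.25 CPM in the fw2.3-WT pools. Again the first fw2.3-D pool lay within the fw2.3-WT range and the other two above it. Its means were 4.02 ± 2.48 CPM and 0.903 ± 0.308 CPM (SD, n = 3), a ratio of 4.45, with a fitted log2 fold change of 2.15 (SE 0.557). The counts behind these levels were small: 29 reads in fw2.3-D pool 1, with an exact 95% Poisson interval of 19.4 to 41.6, and 31 in fw2.3-WT pool 3, with an interval of 21.1 to 44.0. Such intervals cover counting error only.

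Solyc08g080650 differed from the other expressed members in which pool was highest. Its fw2.3-D pools stood at 1.60, 3.76 and 9.52 CPM and its fw2.3-WT pools at 0.869, 1.52 and 1.66 CPM. Pool 3 of fw2.3-D was far above pool 2, with 240 reads (exact 95% Poisson interval 211 to 272) against 108 (88.6 to 130), while the first was again within the fw2.3-WT range. The means were 4.96 ± 4.10 CPM and 1.35 ± 0.421 CPM (SD, n = 3), a ratio of 3.68, with a fitted log2 fold change of 1.88 (SE 0.576). This value leaned on one pool: without fw2.3-D replicate 3 the log2 fold change was 1.00. In that pool the RPKM of Solyc08g080640 was 1.68 times that of Solyc08g080650, against 3.11 to 4.76 times in the other 5 pools.

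**Figure D1:**
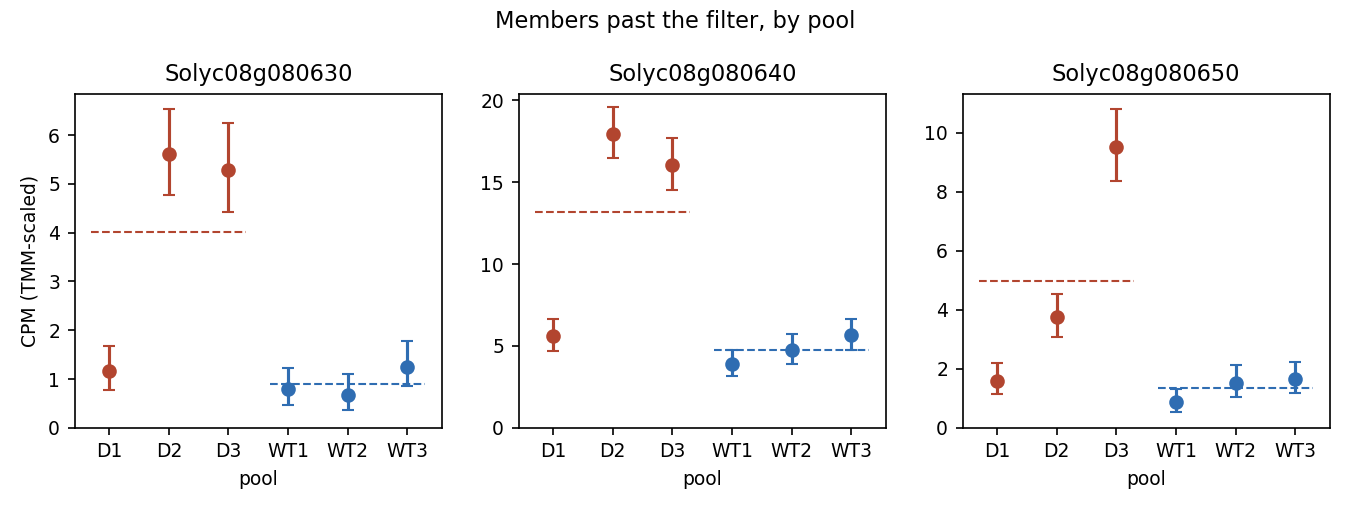
TMM-scaled CPM (y axis, linear, from 0) of Solyc08g080630, Solyc08g080640 and Solyc08g080650 in each pool (x axis; D, fw2.3-D in red; WT, fw2.3-WT in blue), with exact 95% Poisson intervals as bars and the mean of each genotype as a dashed line. In each gene fw2.3-D pools 2 and 3 lie above all fw2.3-WT pools and the first lies among them.

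The other 3 members were close to absent. Solyc08g080620 had 0, 6 and 1 reads across the fw2.3-D pools, against 5, 1 and 1 across those of fw2.3-WT, a total of 7 in each genotype. Solyc08g080660 had 1, 2 and 1 reads in fw2.3-D. Solyc08g080670 had 4, 1 and 1. Both had 0 reads in all 3 fw2.3-WT pools, where the floor of 3 counts per library put the limit at 0.122 to 0.135 CPM. For these 2 members the genotypes had no overlap, but with totals of 4 and 6 reads this is not read as a difference. No fold is given, and the share of rows under the filter without overlap was not computed.

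Summed over the 6 members, the run held 8.57, 27.7 and 31.0 CPM in fw2.3-D, against 5.75, 6.97 and 8.60 CPM for fw2.3-WT. Pool 1 of fw2.3-D and pool 3 of fw2.3-WT were level, and the step lay between the first fw2.3-D pool and the other two of its genotype. The group means were 22.4 ± 12.1 CPM against 7.11 ± 1.43 CPM (SD, n = 3), a ratio of 3.15. The make-up of the sum was similar in most pools. Solyc08g080640 held 65.0% to 68.0% of its reads in 5 pools and 51.8% in fw2.3-D pool 3, where Solyc08g080650 held 30.8%.

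In the fit over all genes, edgeR's quasi-likelihood test called 5 of 20942 genes (0.0239%) at an adjusted p under 0.05, and 3.56% stood at an unadjusted p under 0.05. DESeq2 called 0.214% of the genes to which it gave an adjusted p. No p or call is given for the members, which this contrast chose. Mean CPM was above that of fw2.3-WT in 3 of 3 tested members and in 50.2% of tested genes. The median log2 fold change was 1.88 over the tested members and 0.001 over all tested genes. Genotypes without overlap were found in 0 of the 3 tested members and in 9.49% of tested genes. These counts describe the members and support nothing further.

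The spread between pools of one genotype does not use the difference between genotypes, but it comes from the same pools whose CPM chose the members. Ranks of the members among all tested genes are therefore a description that is not free of that choice. The spread was wide in fw2.3-D. The SD of log2 CPM within genotype was 0.958 for Solyc08g080630, 0.681 for Solyc08g080640 and 0.970 for Solyc08g080650, against a median of 0.215 over tested genes. Of all tested genes, 97.1%, 92.7% and 97.2% had a smaller spread than these members, in the same order. Genes with few reads, as these are, also vary more by counting alone. Within fw2.3-D the median SD of the 3 members was 1.28, and within fw2.3-WT it was 0.456, against medians of 0.207 and 0.188 over tested genes. With the first pool of each genotype left out, a setting that also removes the low fw2.3-D pool, the SD was 0.151 for Solyc08g080640, 0.441 for Solyc08g080630 and 0.671 for Solyc08g080650, against a median of 0.197.

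The 3 members moved together from pool to pool. Their deviations from the genotype mean, over 6 pools, had a Pearson r of 0.968 between Solyc08g080630 and Solyc08g080640. It was 0.813 between Solyc08g080640 and Solyc08g080650 and 0.780 between Solyc08g080630 and Solyc08g080650. These r are descriptions of 6 shared libraries, and fw2.3-D pool 1, 1.26 below its genotype mean on the log2 scale over the 3 members, has most weight in them.

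Fitted differences of the loci beside the run fell both above and under 0. Of the 10 tested loci before and the 10 after the run by locus number, 10 had higher and 10 lower fitted values in fw2.3-D, from -0.55 to 0.25 on the log2 scale, with a median of 0.00. None of the 20 was called by edgeR or by DESeq2, and 0 had an unadjusted p under 0.05. Genotypes did not overlap in 3 of the 20 (15.0%), against 9.49% of all tested genes. All 3 were lower in fw2.3-D, and Solyc08g080580 was one of them. Directly before the run, Solyc08g080580 had a log2 fold change of -0.31 (SE 0.149) and Solyc08g080590 one of 0.05 (SE 0.183). Directly after it, Solyc08g080680 had 0.25 (SE 0.213) and Solyc08g080690 had -0.42 (SE 0.240). The adjusted p of these 4 loci by edgeR ran from 0.948 to 0.975.

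**Figure D2:**
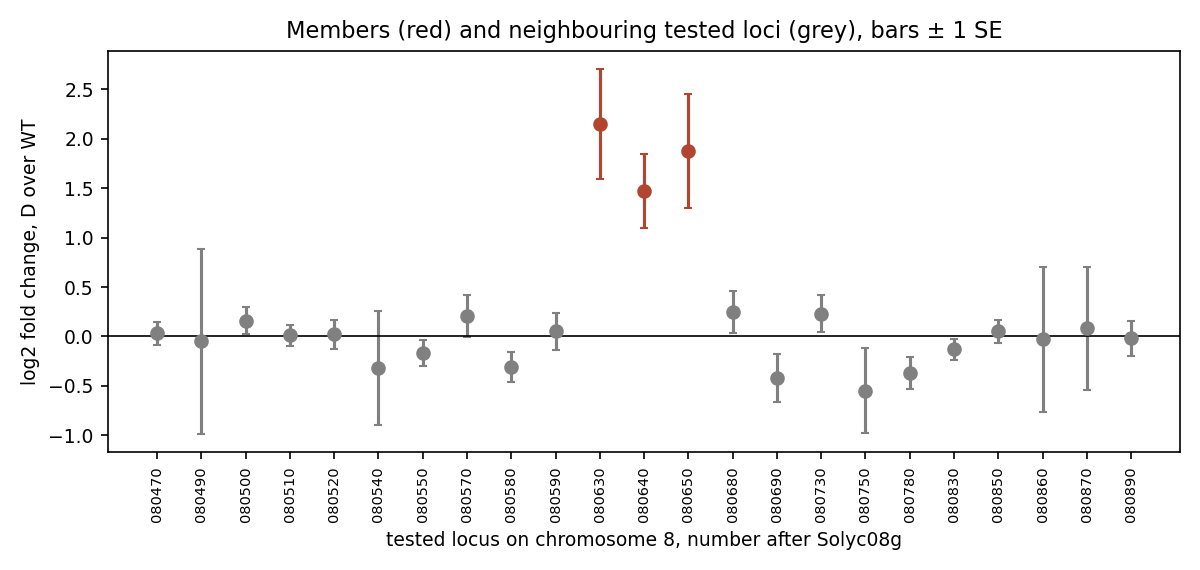
Fitted log2 fold change, fw2.3-D over fw2.3-WT (y axis), with bars of 1 SE, for the 3 members past the filter (red) and the 10 tested loci on each side (grey), in order of locus number on chromosome 8 (x axis, order and not distance). The members stand at 1.47 to 2.15 and the neighbours between -0.55 and 0.25.

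Other groups of defence and stress loci were read beside the run, by locus numbers recalled from published work that no table used here could check. They are therefore given as groups, and any single locus by its number, with no gene names. Of 14 loci listed for other pathogenesis-related proteins, 7 were tested, and all 7 were higher in fw2.3-D by value, with log2 fold changes from 0.12 to 2.50 and a median of 0.43. None was called by edgeR or DESeq2, and 2 had an unadjusted p under 0.05. The summed level of this group was 115, 234 and 269 CPM in fw2.3-D, against 113, 162 and 138 CPM for fw2.3-WT. Pool 1 of fw2.3-D lay within the fw2.3-WT range and the other two were the highest of all, as they were for the summed members.

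Of 9 loci listed for other thaumatin-like proteins, the wider family of the osmotins, 4 were tested. Of these 1 had a higher and 3 a lower value in fw2.3-D, from -0.24 to 0.03, and 0 were called by edgeR or DESeq2, with 0 at an unadjusted p under 0.05. Their summed level was far above that of the run and the genotypes overlapped, at 1714 to 2052 CPM in fw2.3-D against 1823 to 2091 CPM. Of 13 loci listed for ethylene synthesis and response, 9 were tested, 7 with higher and 2 with lower values, from -0.14 to 1.23, and 0 were called by edgeR or DESeq2, with 1 at an unadjusted p under 0.05. Of 5 loci for osmotic stress and abscisic acid, 4 were tested, 1 higher and 3 lower, from -0.83 to 0.04, and 0 were called by edgeR or DESeq2, with 0 at an unadjusted p under 0.05.

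The summed level of loci listed for jasmonate-induced defence was high in all 3 fw2.3-D pools. It was 7482, 7311 and 8660 CPM against 3306, 3294 and 2544 CPM for fw2.3-WT. Most of this sum came from Solyc12g010020 and Solyc12g010030, with fw2.3-D means of 2967 and 2675 CPM. The sum therefore says little of the other listed loci in each pool. Of 13 loci listed, 12 were tested, and all 12 were higher in fw2.3-D by value (median log2 fold change 1.14), and edgeR called 3, all higher: Solyc09g084490, Solyc12g010020 and Solyc12g010030. At an unadjusted p under 0.05 stood 11 of the 12, and DESeq2 called 8. The whole table gave 0 calls by edgeR when pool 2 or 3 of either genotype was left out, with 426 to 1472 genes at an unadjusted p under 0.05, and 18 when pool 1 of fw2.3-D was. The log2 fold changes of the 3 called loci then lay between 1.47 and 1.90 over all 6 such fits. This list was written with earlier results of these data known, so its direction is no independent evidence. In fw2.3-D pool 1, Solyc12g010030 stood at 3.17 times its fw2.3-WT mean, Solyc12g010020 at 3.19 times and Solyc09g084490 at 2.36 times. The summed members stood at 1.21 times theirs in that pool. In fw2.3-D pools 2 and 3 the summed members stood at 3.89 and 4.36 times the fw2.3-WT mean. Solyc12g010030 stood there at 3.08 and 3.30 times its own, Solyc12g010020 at 2.74 and 3.32 times and Solyc09g084490 at 3.53 and 3.93 times. Like the summed members, Solyc09g084490 was thus lowest in pool 1 among the fw2.3-D pools, whereas the other called loci were lowest in pool 2. Loci that pass a test over 3 pools a genotype tend to be high in each of the 3, so these values are set side by side only, and whether the members and these loci differ in response was not tested.

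**Figure D3:**
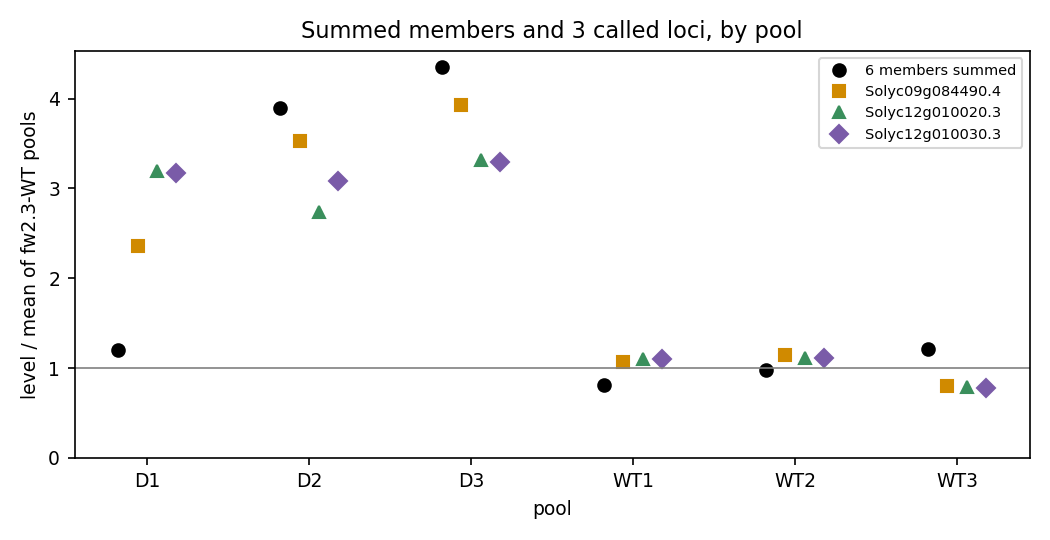
Level in each pool (x axis; D, fw2.3-D; WT, fw2.3-WT) divided by the mean of the 3 fw2.3-WT pools (y axis, from 0), for the 6 members summed and for the 3 called loci of the jasmonate-induced group. In fw2.3-D pool 1 the summed members stand at 1.21 and the called loci at 2.36 to 3.19.

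Genes were also compared with the run in how they varied between pools of one genotype. Among 19386 genes of 1 CPM or more on average, 611 (3.15%) had deviations that correlated with those of the members above an r of 0.9 over 6 pools. Of these 611, 302 had higher values in fw2.3-D, and their log2 fold changes ran from -1.41 to 2.51 with a median of 0.00. In the group of other pathogenesis-related proteins, Solyc10g055800 had an r of 0.96, with 11.8, 39.2 and 53.3 CPM in fw2.3-D against 10.5, 18.6 and 16.2 CPM for fw2.3-WT. Solyc01g106620 had an r of 0.94 and a log2 fold change of 2.50, the largest of that group, and neither was called by edgeR or DESeq2. Both were picked out after their values were seen, and the other tested loci of that group had r from -0.01 to 0.89. The 10 highest lay on 5 chromosomes, with 0 on chromosome 8 and r from 0.992 to 0.998. Solyc09g018900 was the most alike, at 1.76, 3.24 and 3.77 CPM in fw2.3-D, against 2.61, 2.99 and 3.51 CPM for fw2.3-WT. Its first pools were the lowest of each genotype, and its log2 fold change was -0.05. Solyc10g055780 had the largest change of the 10, with 18.8, 57.1 and 63.1 CPM in fw2.3-D against 23.9, 27.5 and 36.1 CPM for fw2.3-WT, a log2 fold change of 0.67. The others were Solyc09g008300, Solyc10g076790, Solyc12g009580, Solyc12g036440, Solyc10g047670, Solyc01g080830, Solyc01g109380 and Solyc05g053330. Of the 10, 5 stood higher in fw2.3-D by value, with log2 fold changes from -0.32 to 0.67, and 0 were called by edgeR or had an unadjusted p under 0.05.

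The labelled tissue was checked with loci listed for floral meristem and organ identity. All 11 were tested, 5 higher and 6 lower in fw2.3-D, from -0.25 to 0.24, and 0 were called by edgeR or DESeq2, with 0 at an unadjusted p under 0.05. Of 4 loci listed for the tapetum and anthers of older buds, 0 had enough reads to be tested. Loci listed for photosynthetic tissue, 7 of 7 tested, ran from -0.18 to 0.14, with 0 called by edgeR or DESeq2 and 0 at an unadjusted p under 0.05. Their summed level was 6273, 5271 and 4272 CPM in fw2.3-D, against 6455, 4788 and 4487 CPM for fw2.3-WT. Within each genotype the pool with the highest photosynthetic level was the one in which the summed members were lowest. Of the tested members, Solyc08g080630 was instead lowest in fw2.3-WT pool 2, at 0.670 CPM against 0.786 CPM in pool 1. The summed level of the floral group was 773, 719 and 668 CPM in fw2.3-D, against 765, 754 and 706 CPM for fw2.3-WT. Like the photosynthetic level, it fell from pool 1 to pool 3 in each genotype. The part of tissue make-up in the levels of the run was not tested.

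**Figure D4:**
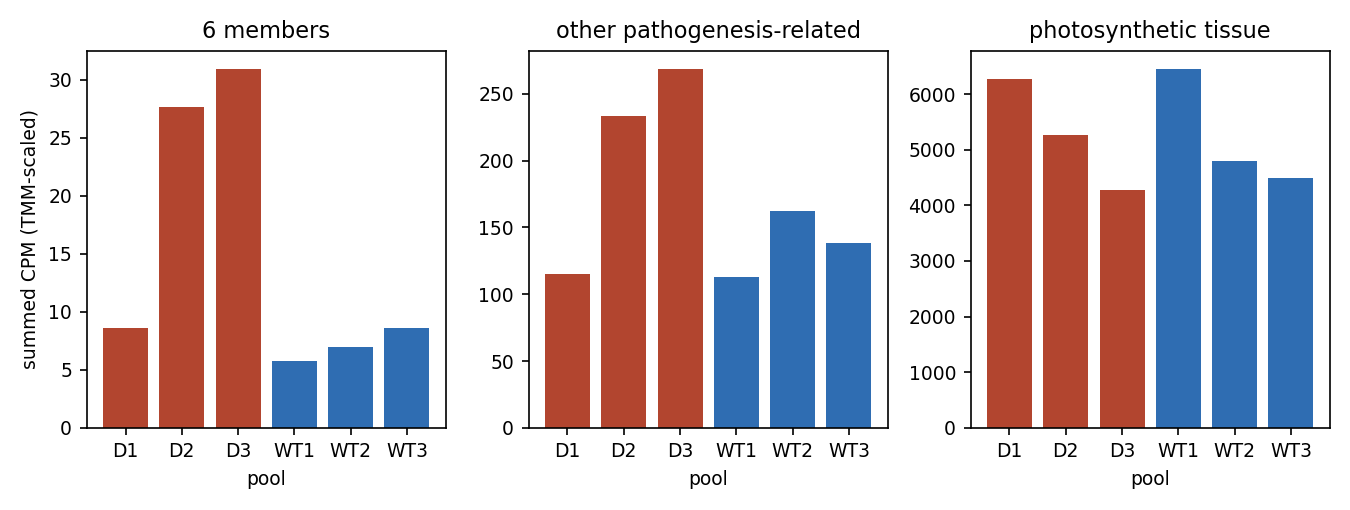
Summed TMM-scaled CPM (y axis, from 0, a scale of its own in each panel) by pool (x axis; D, fw2.3-D in red; WT, fw2.3-WT in blue) for the 6 members, the tested loci listed for other pathogenesis-related proteins and those listed for photosynthetic tissue. The first fw2.3-D pool is low in the first 2 panels and high in the third.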

How the data were processed

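The authors deposited raw read counts per gene, as whole numbers, for each of the 6 pools, and a table of RPKM for the whole series. The submitters' processing notes list Cutadapt, STAR and edgeR with neither role nor version, and the counting program is not given in the sources used here. Pools held 22303511 to 28504360 counts. Of 24595 genes with counts in at least 2 pools, 24593 gave 1 whole-number length from counts and RPKM within 0.01 base, and the lengths used here come from that. No pools agreed within sampling noise (chi-square per gene of 14.0 to 55.2 over 15 pairs). The lowest value, 14.0, was that between the first pools of fw2.3-D and fw2.3-WT, under that of any pair within a genotype. The labels name pools of different plants, so p-values measure the spread between such pools.

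All rows were filtered by filterByExpr (minimum count 10), scaled with TMM and tested for genotype alone in edgeR 4.0.16 under R 4.3.3, by its two-sided quasi-likelihood test (glmQLFTest) with Benjamini-Hochberg adjustment. The filter left 20942 genes. SE was taken as the size of the fitted log2 change over the root of F. Spread used log2 CPM with 0.5 added to counts. On simulated data of 20740 genes that passed the same filter, the fit recovered 95.9% of genes changed by 2 and 99% of those changed by 3 on the log2 scale. False calls numbered 14. The simulation changed 98 of the genes at each size, whereas the real table gave 5 calls. These rates therefore check the fit and do not give its sensitivity in the real table. Alternatives were DESeq2 1.42.0, limma 3.58.1 on log2(RPKM + 1) and log2(RPKM + 0.1), other scalings and filters, a robust fit, a term for the first pools, the replicate block, rows summed per locus and each pool left out. Leaving out the first pools was added after seeing the data for all but the spread.

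Of 34081 identifiers, 0 were found in the RefSeq table of assembly SLM_r2.1, whose build differs, so its coordinates are not used. Named genes were the members, the 10 most alike in deviations, the 2 tested loci on each side, and called members of the lists. Solyc10g055800 and Solyc01g106620 were named outside this rule, after their values were seen. The members and lists were chosen with earlier results of these data known.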

Additional observations from a re-analysis of the deposited data

How the results depend on the processing

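The expressed members had higher values in fw2.3-D under every alternative run, including each pool left out. The median of their log2 fold changes, 1.88, lay between 1.31 and 2.29 when single pools were left out. All runs draw on the same 6 pools, whose CPM chose the members, so this shared direction is a description and no independent evidence. With limma on log2(RPKM + 1) the log2 fold change of Solyc08g080630 was 1.09 against 2.15, and the fold of Solyc08g080650 was 2.29, smaller by 1.60 times, as the pseudocount shrinks low values. The ratio of the summed members, 3.15, lay between 2.55 and 4.12 when single pools were left out. The median spread within genotype, 0.958, was 0.441 with the first pools left out. The count of 5 called genes was 10 under the replicate block, 13 unfiltered, 13 when the first pools had their own term, 48 with DESeq2, 21 with the first pools left out and 0 by limma on log2(RPKM + 1), with 774 genes of unadjusted p under 0.05, or on log2(RPKM + 0.1), with 746. Leaving out single pools gave 0 to 18 called genes, and the count of 3 called loci in the lists became 0 to 6; the cause was not tested. Replicate numbers were not shown to pair all the pools, since deviations correlated at 0.434, -0.134 and 0.077 for numbers 1, 2 and 3. The first pools were an exception, as each was the best match of the other among pools of the other genotype. The labels do not say whether they share a day or batch. Any part of this likeness in the low level of the members in fw2.3-D pool 1 was not tested. Under the block the members' log2 fold changes were 1.95, 1.34 and 1.63 in locus order. The limit set by 0 counts was 0.105 to 0.135 CPM per pool, so levels of Solyc08g080620, Solyc08g080660 and Solyc08g080670 could not be compared.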
